A study of Danio rerio with 34 samples.

Results

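The transcripts described here are zebrafish genes whose RNA was nearly absent from control embryos at 2 and 4 hours post fertilization (hpf) and abundant at 6 hpf, the shield stage. They were chosen on control RNA-seq, from the mean of 2 libraries at each time, as transcripts under 1 RPKM (read density scaled to transcript length and library size) at 2 hpf, under 1 RPKM at 4 hpf and at 5 RPKM or more at 6 hpf. Of the 13856 transcripts listed in at least 1 of the 10 RNA-seq libraries, 168 met these limits. Leaving out 7 with symbols beginning apo or cdx gave 161 transcripts of 161 genes, out of 13508 genes in all. A symbol could be given to 157 of them, and 4 are named by their RefSeq identifiers. For 3 of the 161 genes other RefSeq transcripts of the same symbol were also listed. The limits were applied to each transcript by itself, so the onset is that of the transcript.

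Embryos of the wild-type strain AB were used throughout. RNA-seq on poly(A) RNA covered control embryos at 2, 4 and 6 hpf and elavl1a morphants at 4 and 6 hpf, with 2 libraries in each group. Morphants had been injected at the 1-cell stage with a morpholino, an antisense oligonucleotide directed here at the start codon of elavl1a, which encodes an RNA-binding protein of the Elav/Hu family. Whether the RNA-seq controls received a control morpholino is not given in the sources used here. The second assay, icSHAPE, uses the reagent NAI-N3 to mark flexible nucleotides in living embryos. It yields a reactivity from 0 to 1 for each nucleotide, with libraries from embryos given only the solvent DMSO as background. There was 1 pooled profile per stage, at 0, 0.4, 1, 2, 4 and 6 hpf in wild-type embryos and at 4 and 6 hpf in morphants. All libraries came from pools of whole embryos, so fewer cells of a type and less RNA per cell cannot be told apart.

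Before the zygotic genome is switched on, the embryo lives on RNA and protein that the mother stored in the egg. Activation proceeds in waves, and the transcripts of a late wave appear as gastrulation begins, when the shield forms at the dorsal margin and the germ layers take shape. Such a wave typically holds transcription factors and signals that pattern mesoderm, neural plate and ectoderm, together with products of the first differentiating tissues: the enveloping layer, an outer epithelium that covers the embryo, and the yolk syncytial layer, which feeds yolk nutrients to it.

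The RNA-seq libraries held 61776396 to 104388477 uniquely placed reads, and 1.60% to 2.75% of reads were placed at more than 1 site, against 5.24% of the reads of the 161 transcripts in 6 hpf controls. Replicates were close, with a median absolute log2 ratio between the 2 libraries of 0.049 for the 161 transcripts in 6 hpf controls and 0.060 in 6 hpf morphants. The elavl1a transcript itself stood at 298 and 299 RPKM in 6 hpf controls and at 343 and 342 RPKM in morphants, which checks nothing, since a start-codon morpholino acts on translation. No label says whether replicates came from separate clutches, so p-values measure the spread between libraries, which may be technical.

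The files list no value under 0.1 RPKM, so an unlisted transcript is one below that limit rather than at zero. At 2 hpf 85 of the 161 were unlisted in both control libraries and 76 were listed in at least 1. At 4 hpf 155 were listed in at least 1 control library, with a median of 0.446 RPKM, and the 4 hpf mean was above the 2 hpf mean for 139 and below it for 16. The name "first seen at shield" therefore holds for the level of 5 RPKM and not for detection. The exceptions, unlisted in both 4 hpf control libraries, were slc22a2, shha, gna14, tuft1a, sult5a1 and twist2.

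At 6 hpf the control mean ranged from 5.02 to 104 RPKM with a median of 12.5 RPKM; 40 transcripts were at 20 RPKM or more, 55 between 10 and 20 RPKM and 66 below 10 RPKM. Together they made up 0.656% and 0.652% of the reads in the 2 control libraries. Their median length was 1832 nt, against 1814 nt for the other listed transcripts. These levels chose the transcripts and are given as a description. Just inside the limit stood the claudin gene cldnk at 5.02, si:dkey-204f11.64 at 5.04 and wwtr1 at 5.06 RPKM, and just outside it spink4 at 5.00, adora1b at 4.83 and fkbp9 at 4.81 RPKM, where spink4 was at 4.999 before rounding. A few pairs lay no more than 3 protein-coding genes apart in RefSeq annotation (assembly GRCz12tu): cybb and xk, hk1 and hkdc1, eppk1 and pleca, ankrd31 and gcnt4a, prss60.1 and prss60.2, and sult5a1 and LOC565422.

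**Figure D1:**
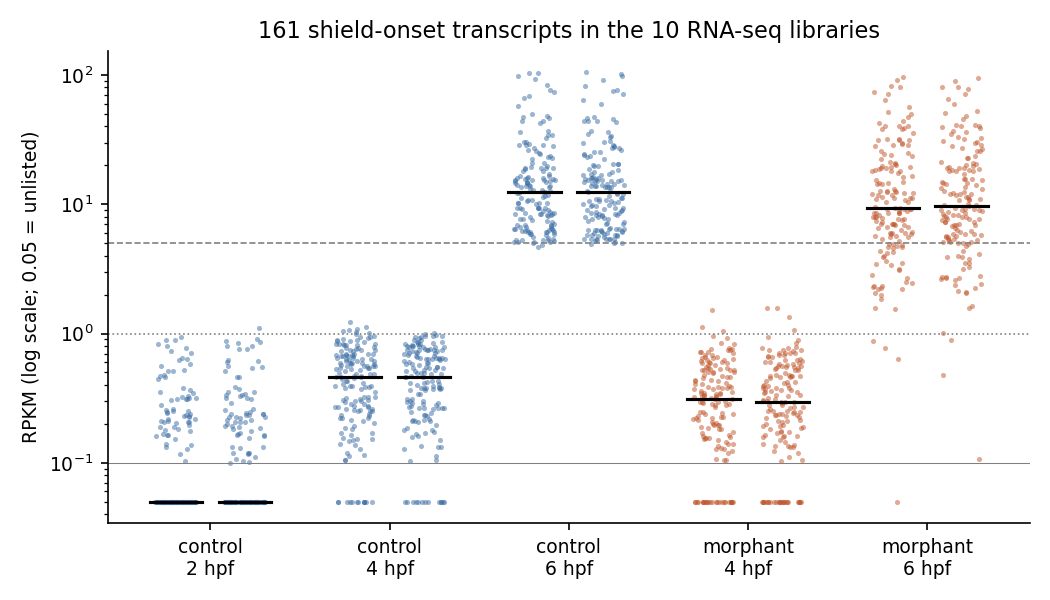
RPKM (log scale) of the 161 transcripts in each of the 10 RNA-seq libraries, replicate 1 left and replicate 2 right within a group, controls in blue and elavl1a morphants in orange. Points are transcripts, black bars are medians, unlisted transcripts are drawn at 0.05, and lines mark 0.1, 1 and 5 RPKM; the library medians are 12.5 and 12.4 RPKM in 6 hpf controls and 9.38 and 9.77 RPKM in 6 hpf morphants.

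The most abundant of these transcripts in 6 hpf controls were products of very different tissues. The homeobox gene eve1, a marker of ventral and posterior mesoderm, was at 104 and 105 RPKM in the 2 libraries. It was followed by rltgr at 103 and 102 RPKM and by agr1, a member of the anterior gradient protein disulfide isomerase family, at 97.8 and 98.3 RPKM. Next came anxa1c, an annexin gene of the outer epithelium, and sox2, which maintains neural progenitors, with means of 92.4 and 83.1 RPKM. Genes of plasma proteins and nutrient metabolism stood beside them: tfa, encoding the iron carrier transferrin, had a mean of 76.4 RPKM, bhmt, encoding a methyltransferase that regenerates methionine, 74.5 RPKM, and pla2g12b, needed for lipoprotein secretion, 70.5 RPKM. The adhesion gene cdh6, the segmentation genes mespab and her1, and the carbonic anhydrase gene cahz completed the first 12, at 65.2, 58.5, 48.7 and 47.5 RPKM.

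The onset between 4 and 6 hpf was measured again in libraries that had no part in choosing the transcripts. In morphants 158 of the 161 were below 1 RPKM at 4 hpf, with 18 unlisted in both libraries, and 125 were at 5 RPKM or more at 6 hpf. Both limits were met by 124. By edgeR's quasi-likelihood test, where a call is an adjusted p under 0.05 over 9945 transcripts, 160 of the 161 were higher at 6 than at 4 hpf within morphants, against 32.1% of all tested transcripts. For example, sox2 was at 0.525 and 0.850 RPKM in the 4 hpf morphant libraries and at 91.9 and 89.2 RPKM in those at 6 hpf. The exception was eva1ba, at 1.05 and 1.07 RPKM at 4 hpf, unlisted in 1 morphant library at 6 hpf and at 0.106 RPKM in the other, while its 6 hpf controls were at 10.6 and 10.8 RPKM. Its transcript was thus close to the listing limit in morphants at the time it appeared in controls. All 161 had been chosen for such a rise in controls of the same ages, and their 6 hpf levels brought them into the test. A count far above 32.1% follows largely from that choice, so the 160 are a description.

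Wild-type icSHAPE profiles gave a separate view of the same onset. They listed 1 of the 161 at 0, at 0.4 and at 1 hpf, 0 at 2 hpf, 2 at 4 hpf and 104 at 6 hpf, out of 6684 to 7937 transcripts listed per stage. The 104 had a median control RNA-seq level of 15.7 RPKM at 6 hpf, and the 57 unlisted ones 7.69 RPKM. Before 6 hpf the listed ones were bmp4, a ligand that patterns ventral tissues, and tuba1a, a tubulin gene. In bmp4, values covered 10.4% to 13.7% of its 2955 nucleotides at 0, 0.4, 1 and 4 hpf and lay between nucleotides 1750 and 2668. At 6 hpf they covered 96.5% of the transcript, from nucleotide 45 to 2925, while RNA-seq listed bmp4 in neither 2 hpf control library. In tuba1a 4.81% of nucleotides had a value at 4 hpf and 80.8% at 6 hpf.

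The morphant profiles, which also had no part in the choice, listed 1 of the 161 at 4 hpf, again bmp4, and 48 at 6 hpf. All 48 were among the 104 listed in wild type. The files list 4303 transcripts in the 6 hpf morphant profile and 6996 in the wild-type profile. The morphant profile thus held 61.5% as many transcripts as the wild-type one in all and 46.2% as many of the 161. Its lowest listed RPKM was higher, 13.4 against 3.95, so a transcript of low level could be listed in wild type alone. The part of this difference in the smaller share was not tested.

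The comparison of morphants with controls at 6 hpf asked whether these transcripts differed after Elavl1a knockdown. The paper reports that elavl1a morphants reached sphere somewhat late and that their gastrulation was markedly delayed. Embryos of the same age may therefore differ in stage, and the part of stage in the differences below was not tested. Of the 161, 86 were lower in morphants and 35 higher by edgeR, and 40 were not called. Over all 9945 tested transcripts 39.0% were lower and 40.6% higher. More than 2-fold differences were called for 37 in the lower and 10 in the higher direction, against 8.62% and 10.3% of all tested. The median log2 change was -0.33, and 0.0075 over all tested transcripts. All 161 passed the filter on low values through their 6 hpf levels. In RPKM, both morphant libraries lay below both controls for 102, above for 48 and overlapped them for 11, against 43.8% below and 44.8% above over all tested.

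The balance of lower and higher calls depended on which libraries chose the transcripts. The 6 hpf controls that enter this comparison also chose the transcripts, so a high control value was required and a high morphant value was not. Under the same limits applied to morphant libraries at 4 and 6 hpf, a choice added after the data were seen, 199 transcripts were found. Of those, 73 were lower and 83 higher in morphants, 11 and 46 by more than 2-fold, and their median log2 change was 0.12. The 124 transcripts in both sets comprised 52 lower and 35 higher, and the 236 in either set 107 lower and 83 higher. The direction of the group as a whole is therefore not read here, and each gene's own values are given.

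**Figure D2:**
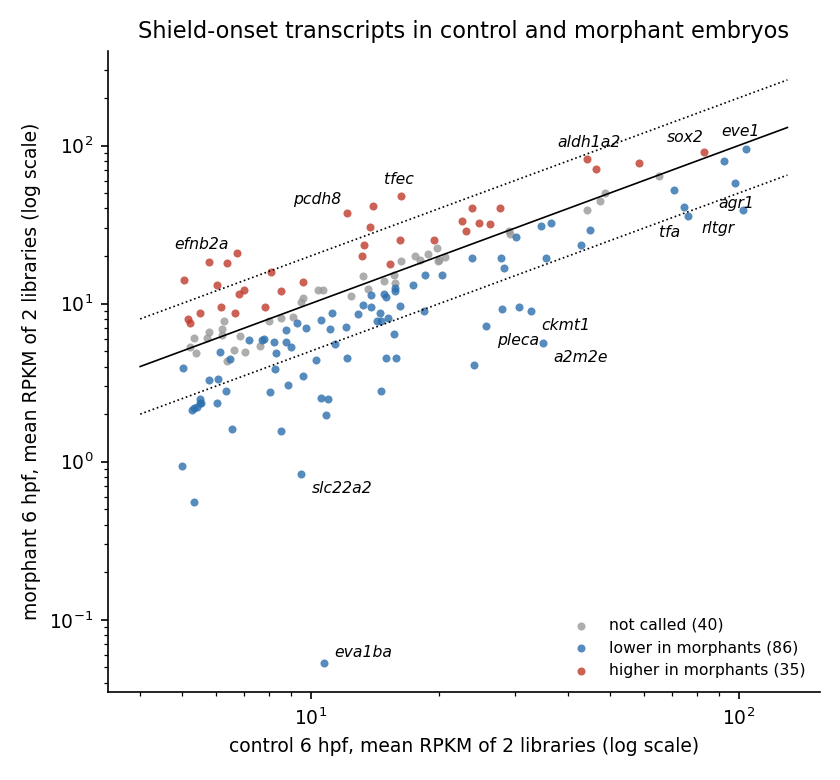
Mean RPKM (log scales) of the 161 transcripts in 6 hpf controls (x axis) and 6 hpf elavl1a morphants (y axis), 2 libraries each; colours give the edgeR call (86 lower, 35 higher, 40 not called). The solid line marks equal levels and the dotted lines 2-fold differences; eva1ba lies far below the rest, and no transcript lies left of 5 RPKM because the choice required that level in controls.

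Segmentation and mesoderm genes moved in both directions. In the list of paraxial, lateral and ventral mesoderm genes 10 of the 161 were present: 2 were lower, 3 higher and 5 not called, and over the 29 tested genes of that list 6 were lower and 12 higher. The protocadherin gene pcdh8, active in the presomitic mesoderm, stood at 12.3 and 12.0 RPKM in controls and at 38.2 and 36.9 RPKM in morphants. It rose by 1.72 on the log2 scale (SE 0.057, edgeR adjusted p = 2.07e-16), and the groups did not overlap. The ephrin ligand gene efnb2a stood at 6.14 and 7.34 RPKM in controls and at 20.4 and 21.4 RPKM in morphants (log2 change 1.75, SE 0.14).

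More moderate rises were seen in foxc1a, a forkhead gene of paraxial mesoderm, from a mean of 27.7 to 40.4 RPKM, and in mespab, which sets segment borders, from 58.5 to 77.4 RPKM. Aldh1a2, the enzyme that makes retinoic acid in trunk mesoderm, went from 44.4 and 44.1 RPKM to 82.2 and 81.2 RPKM (log2 change 0.91, SE 0.048). The segmentation clock gene her1 was at 50.3 and 47.1 RPKM in controls and 49.5 and 50.6 RPKM in morphants, and its groups overlapped. Ripply1 and ripply2, which end the segmentation programme, and fgf24 and twist2 were not called either, although 3 alternatives called ripply1 lower. Lower in morphants were dlc, a Notch ligand of the segmentation clock, with means of 42.8 and 23.5 RPKM, tbx16l (34.6 and 30.9 RPKM) and eve1 (104 and 95.2 RPKM). The calls of tbx16l and eve1 rest on small differences, and that of eve1 was lost when 6 hpf control replicate 1 or 2 or morphant replicate 2 was left out. The transcriptional coactivator gene wwtr1 (Taz), in none of the lists, rose from 4.69 and 5.42 RPKM to 14.3 and 14.0 RPKM.

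Among neural, axial and endodermal regulators otx2b, a homeobox gene of forebrain and midbrain, fell by more than 2-fold. It was at 18.1 and 18.7 RPKM in controls and 8.86 and 9.07 RPKM in morphants, a fall of 1.09 on the log2 scale (SE 0.12, edgeR adjusted p = 5.07e-08). The Notch ligand gene dla, which acts in neurogenesis, fell from a mean of 8.78 to 5.75 RPKM, and shha, the Hedgehog ligand of the axial midline, from 6.50 to 4.43 RPKM. The anterior genes six3b and hesx1 and the Hairy-related gene her9 were not called, although 1 alternative called her9 higher. Their means in controls and morphants were 6.22 and 6.31, 19.9 and 18.6, and 10.7 and 12.2 RPKM. Sox2 was at 83.6 and 82.5 RPKM in controls and 91.9 and 89.2 RPKM in morphants (log2 change 0.13, edgeR adjusted p = 0.0353). The calls of sox2, of the endodermal factor gata6 (7.82 and 9.51 RPKM), of the secreted Wnt inhibitor frzb (15.3 and 17.8 RPKM) and of hoxb1b (5.23 and 7.49 RPKM) were lost with DESeq2 and when single 6 hpf libraries were left out. Prdm14, a PR-domain gene named after its values were seen, rose from 23.9 to 40.2 RPKM. Of the 5 in the list of neural plate factors 1 was lower and 1 higher, and of the 37 tested genes of that list 12 were lower and 13 higher. Of the 5 in the list of endoderm and axial mesoderm genes 2 were lower and 2 higher. Its 26 tested genes comprised 6 lower and 15 higher. Prdm1a, the member of that list that was not called, was at 15.7 RPKM in controls and 15.2 RPKM in morphants.

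Ventral and surface ectoderm was represented by ligand, target and homeobox genes. Bmp4 stood at 15.1 and 15.2 RPKM in controls and at 7.69 and 8.41 RPKM in morphants, a fall of 0.97 on the log2 scale (SE 0.10, edgeR adjusted p = 7.49e-08). Id4, of a family of inhibitors of basic helix-loop-helix factors that respond to BMP signals, fell from 16.0 and 15.3 RPKM to 5.63 and 7.28 RPKM. Both were lower by more than the spread between libraries. Over the 34 tested genes of the Nodal and BMP list 16 were lower and 11 higher. Msx1a fell from a mean of 8.32 to 4.88 RPKM and six4a rose from 7.00 to 12.1 RPKM, both calls that DESeq2 did not make. The placode gene dlx3b and the homeobox gene msx3 were not called, at 9.59 and 10.9 RPKM and at 5.39 and 4.87 RPKM.

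Genes of Wnt signals and their receptors differed among themselves. The ligand wnt5b, which acts in convergence and extension, was at 13.6 and 12.8 RPKM in controls and 19.8 and 20.01 RPKM in morphants. The receptor gene fzd2 was at 6.63 and 6.99 RPKM and at 11.8 and 11.0 RPKM, and both rose with no overlap (log2 changes 0.63 and 0.76, SE 0.085 and 0.12). A second receptor gene, fzd10, was at 12.5 and 12.4 RPKM in controls and 11.3 and 11.0 RPKM in morphants. Its libraries did not overlap and it was not called (log2 change -0.17, edgeR adjusted p = 0.0598), although DESeq2 and 5 other alternatives called it lower. In the Wnt list as a whole 19 of 36 tested genes were higher and 10 lower.

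Genes of barrier epithelia numbered 10 by known function. The group was put together after the values had been seen, from transcripts chosen on the same 6 hpf controls, so its 9 lower and 0 higher calls, beside 39.0% lower over all tested transcripts, are a description and no direction is read from them. Pleca, which encodes the cytoskeletal linker plectin, was at 25.9 and 25.5 RPKM in controls and 7.09 and 7.26 RPKM in morphants. It fell by 1.96 on the log2 scale (SE 0.031, edgeR adjusted p = 1.39e-21). Its neighbour eppk1, encoding epiplakin, fell by 0.60. The tight junction gene cldnk was at 5.09 and 4.94 RPKM in controls and 0.878 and 1.01 RPKM in morphants. Col17a1a, a hemidesmosome collagen gene, went from a mean of 6.07 to 3.32 RPKM, a call not made by DESeq2. Anxa1c and the calpain gene capn8 had smaller differences, with log2 changes of -0.22 and -0.44. The lipoxygenase gene alox12 was not called, at 29.0 and 28.7 RPKM.

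Anxa1c and capn8 were those of the 161 found in the fixed list of enveloping layer and epithelial genes. Over all 31 tested genes of that list 16 were lower, 10 higher and 5 not called, with a median log2 change of -0.16.

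Genes of plasma proteins and lipid handling numbered 11, again grouped after their values were known and given as a description. The 5 transcripts with symbols beginning apo that met the level limits had been left out, so none of them is among the 11. Of the 11, 9 were lower, beside the same 39.0%, and 1, gpat3, was higher. Gpat3 encodes an acyltransferase of triglyceride synthesis. Tfa was at 76.4 RPKM in both control libraries and at 35.3 and 36.4 RPKM in morphants, a fall of 1.12 on the log2 scale (SE 0.051, edgeR adjusted p = 9.75e-14). A2m2e, a gene of the alpha-2-macroglobulin family of protease inhibitors, was at 36.0 and 33.9 RPKM in controls and 5.57 and 5.62 RPKM in morphants, 6.24-fold lower. Fabp1b.1, encoding a fatty acid-binding protein, was at 34.4 and 36.6 RPKM in controls and 21.0 and 18.0 RPKM in morphants. Tm6sf2a, of a family involved in lipoprotein lipidation, fell from a mean of 30.7 to 9.58 RPKM, and pla2g12b from 70.5 to 52.4 RPKM. In the fixed list of yolk syncytial layer, liver-type and plasma protein genes, where 3 of the 161 were present and lower (tfa, uox and fabp1b.1), 6 of the 15 tested genes were lower and 7 higher. The call of uox, which encodes urate oxidase, was lost when any of the 4 libraries at 6 hpf was left out.

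Enzymes and transporters of small molecules held some of the most extreme changes in both directions. Slc22a2, an organic cation transporter gene, was at 9.35 and 9.68 RPKM in controls and 0.770 and 0.894 RPKM in morphants, 11.4-fold lower. Slc47a1, an exporter of organic cations, fell from 10.3 and 11.5 RPKM to 1.85 and 2.07 RPKM. Slc25a1b, of the mitochondrial citrate carrier family, rose from 13.9 and 14.1 RPKM to 42.3 and 40.3 RPKM (log2 change 1.64, SE 0.076, edgeR adjusted p = 5.86e-14). The 4 solute carrier genes were thus divided, 2 lower and 2 higher, the other being slc47a4 (log2 change 0.38). Over the 180 tested solute carriers 65 were lower and 80 higher. Ckmt1, encoding mitochondrial creatine kinase, fell from 32.4 and 33.1 RPKM to 8.61 and 9.40 RPKM, and bhmt from 74.1 and 74.98 RPKM to 40.2 and 41.1 RPKM. The hexokinase genes hk1 and hkdc1, adjacent in the genome, moved apart, with log2 changes of -0.63 and 0.62.

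Among genes outside these groups, art4, encoding an ADP-ribosyltransferase, was at 4.84 and 5.87 RPKM in controls and 0.632 and 0.475 RPKM in morphants. Others lower by more than 5-fold included si:ch211-105c13.3, from a mean of 24.1 to 4.11 RPKM, and cfap68, a cilium-associated gene, from 8.54 to 1.56 RPKM. Agr1 fell from 97.8 and 98.3 RPKM to 56.6 and 59.5 RPKM, and rltgr from 103 and 102 RPKM to 38.2 and 39.9 RPKM, a call absent with DESeq2 (adjusted p = 0.127). Among the most raised were tfec, a transcription factor of the Mitf/Tfe family, from 16.5 and 16.0 RPKM to 47.6 and 47.8 RPKM, and large2, a glycosyltransferase acting on dystroglycan, from 6.48 and 6.28 RPKM to 18.0 RPKM in both libraries. Rbp7a, encoding a retinoid-binding protein, rose from a mean of 5.80 to 18.3 RPKM, and zgc:194839 from 13.8 to 30.3 RPKM. DESeq2 did not call these last genes (adjusted p = 0.173 and 0.70). The matrix gene efemp2b was not called (18.0 and 18.8 RPKM) and the record with the symbol nid1b (NR_023340), which RefSeq lists as non-coding, rose from 8.54 to 12.0 RPKM, a call lost without 6 hpf control replicate 1. Cdh6 was not called, at 66.1 and 64.3 RPKM in controls and 64.3 and 64.7 RPKM in morphants, although 2 alternatives called it lower. Pcdh18b was lower by 0.33 on the log2 scale.

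**Figure D3:**
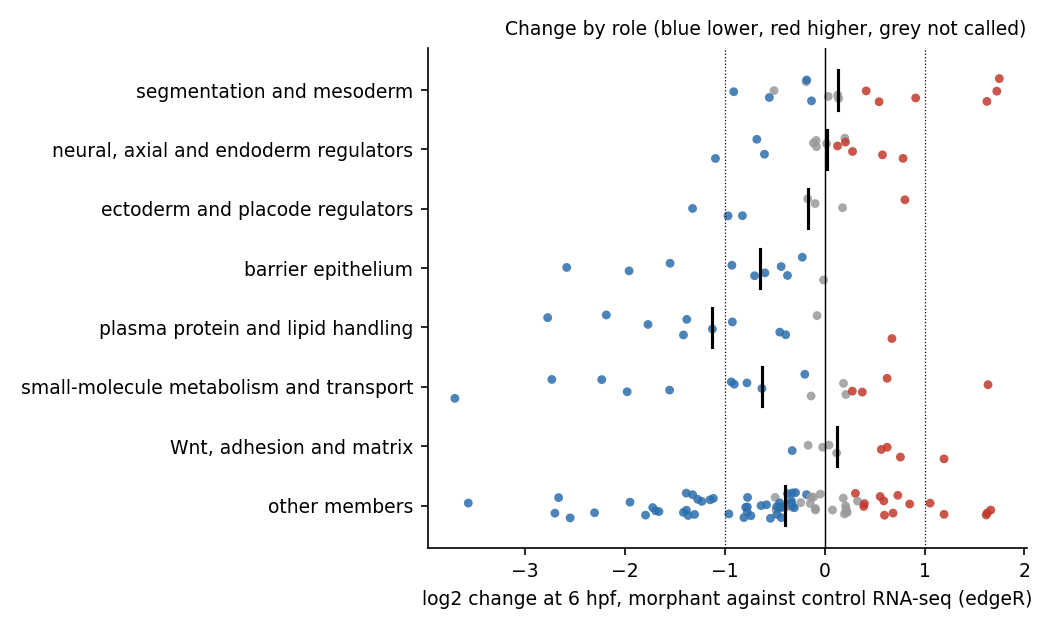
Log2 change at 6 hpf, morphant against control RNA-seq (x axis, edgeR), of the 161 transcripts other than eva1ba, by role of the product; roles were assigned after the values were seen. Each point is a transcript (blue lower, red higher, grey not called), black bars are medians and dotted lines mark 2-fold. Control levels that chose the transcripts enter the x axis, so the position of a group is not read; slc22a2 lies farthest to the left and efnb2a (1.75) farthest to the right.

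At 4 hpf these transcripts were below 1 RPKM in controls by choice, and they passed the filter on low values through their 6 hpf levels, so the counts are a description and no direction of the group is read. The median was 0.310 RPKM in morphants against 0.446 RPKM in controls. EdgeR called 62 lower and 12 higher, against 22.9% and 39.5% of all tested transcripts, or 62.5% in either direction. Both morphant libraries were below both controls for 84 and above for 14, against 32.1% and 49.9% of all tested. Agr1 was at 0.596 and 0.650 RPKM in 4 hpf controls, unlisted in 1 morphant library and at 0.191 RPKM in the other, and gata6 was at 0.835 and 0.805 RPKM against 0.202 and 0.173 RPKM. Among the 12 higher at 4 hpf was otx2b, at 0.150 and 0.180 RPKM in controls and 0.405 and 0.195 RPKM in morphants. Its values rest on few unique reads, 11 and 4 against 43 and 18. Another of the 12 was shha, unlisted in both controls and at 0.232 and 0.281 RPKM in morphants. Both genes were lower at 6 hpf and are given as examples of the 12. Values under 0.1 RPKM are unlisted and entered the test as 0 reads, and with 0.1 RPKM in their place, an alternative added after the data were seen, the calls numbered 65 rather than 74.

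Each icSHAPE profile gives 1 RPKM per transcript, from structure-probing libraries other than the RNA-seq ones. Morphants are set there against wild-type embryos and not against the RNA-seq controls, so the difference is related and not the same. Levels could also differ between assays. Gata6 was at 90.5 RPKM in wild-type icSHAPE and 7.82 RPKM in control RNA-seq, while eve1 was at 113 and 104 RPKM. A 6 hpf ratio could be read for the 48 transcripts listed in both the wild-type and the morphant profile. Tfa was at 68.4 RPKM in wild type and 81.3 RPKM in morphants there, in contrast to its fall in RNA-seq. A2m2e was at 16.7 and 32.0 RPKM, ckmt1 at 27.4 and 28.0 RPKM, and rltgr at 65.3 and 70.5 RPKM. None of these was lower in the morphant profile, although each fell by more than 2-fold in RNA-seq. The other listed transcripts with a fall of that size, mpp1 (31.4 and 26.7 RPKM) and NM_001171032_4 (49.1 and 38.8 RPKM), were lower in the morphant profile as well. NM_001171032_4 is a numbered copy of its RefSeq record, so its reads could be shared with other copies.

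Of the 10 transcripts that rose by more than 2-fold in RNA-seq, all were listed in the wild-type and 5 in the morphant profile. Those 5 showed no rise of that size in icSHAPE. Pcdh8 was at 36.0 RPKM in the wild-type and 33.8 RPKM in the morphant profile, slc25a1b at 51.3 and 53.0, tfec at 30.8 and 25.5, rbp7a at 60.1 and 66.4 and efnb2a at 16.4 and 17.7 RPKM. Among those with smaller rises in RNA-seq, frzb (17.1 and 26.8 RPKM) and kirrel3l (17.8 and 25.6 RPKM) had larger log2 ratios in icSHAPE than in RNA-seq, 0.65 against 0.21 and 0.52 against 0.40. Of the 17 listed transcripts that were lower in RNA-seq, 8 were lower and 9 higher in the morphant icSHAPE profile. Of the 20 that were higher, 8 were lower and 12 higher. Of the 11 not called, 2 were lower and 9 higher, which made 18 lower and 30 higher among the 48. The 4099 other tested transcripts listed in both profiles leaned the other way, 2274 lower and 1825 higher. Among the 201 of them more than 2-fold lower in RNA-seq, 114 were lower and 87 higher. The median log2 ratio in icSHAPE was 0.029 for the 17 and 0.033 for the 20, where RNA-seq gave -0.91 and 0.55. Dlc was at 29.5 and 35.6 RPKM in icSHAPE, and bmp4 at 32.8 and 39.4 RPKM. At 4 hpf bmp4 was already at 9.40 RPKM in wild-type and 18.6 RPKM in morphant icSHAPE, over 13.7% and 11.6% of its nucleotides. RNA-seq at 4 hpf gave it 0.350 RPKM in controls and 0.176 RPKM in morphants. The 6 hpf icSHAPE ratio of bmp4 is therefore not read as a change of its onset.

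Being listed itself depends on read depth. Per the methods, transcripts were kept by their reverse transcription stops and base density, so RPKM was not the criterion. The lowest RPKM seen among listed transcripts was 3.95 in wild type and 13.4 in morphants. Of the 86 transcripts lower in RNA-seq 44 were listed in the wild-type and 17 in the morphant profile, of the 35 higher 32 and 20, and of the 40 not called 28 and 11. No transcript under 13.4 icSHAPE RPKM in morphants therefore entered this reading.

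Over the 48 transcripts the log2 changes of the 2 assays had a Pearson r of -0.048 and a Spearman rho of 0.056, and over the 4099 other tested transcripts listed in both profiles an r of 0.0073. Levels themselves were related, with r = 0.50 for the 48 and 0.79 for the others between log2 wild-type icSHAPE and log2 control RNA-seq at 6 hpf. The 104 transcripts listed in wild type had an r of 0.66 with control and 0.64 with morphant RNA-seq at 6 hpf (Spearman rho 0.62 and 0.68). The 6528 others had an r of 0.85 and 0.88. Wild-type icSHAPE levels thus correlated about as closely with the morphant as with the control libraries, and for the others slightly more closely with the morphant ones. For the 104, r and rho differed in which was higher. Such correlations do not measure how near the levels are. Between the 2 icSHAPE profiles at 6 hpf the log2 levels had an r of 0.92 for the 48 and 0.98 for the 4099 others. The change from 4 to 6 hpf was also shared: over 5981 other transcripts the log2 change in wild-type icSHAPE and in control RNA-seq had an r of 0.90. These are descriptions across transcripts, which are not independent replicates and share base composition and length between assays. Each icSHAPE profile pools its libraries, so its RPKM has no spread, and which of its libraries the RPKM came from is not given in the sources used here. The part of injection batch, clutch, exact age or developmental stage in the RNA-seq difference was not tested.

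**Figure D4:**
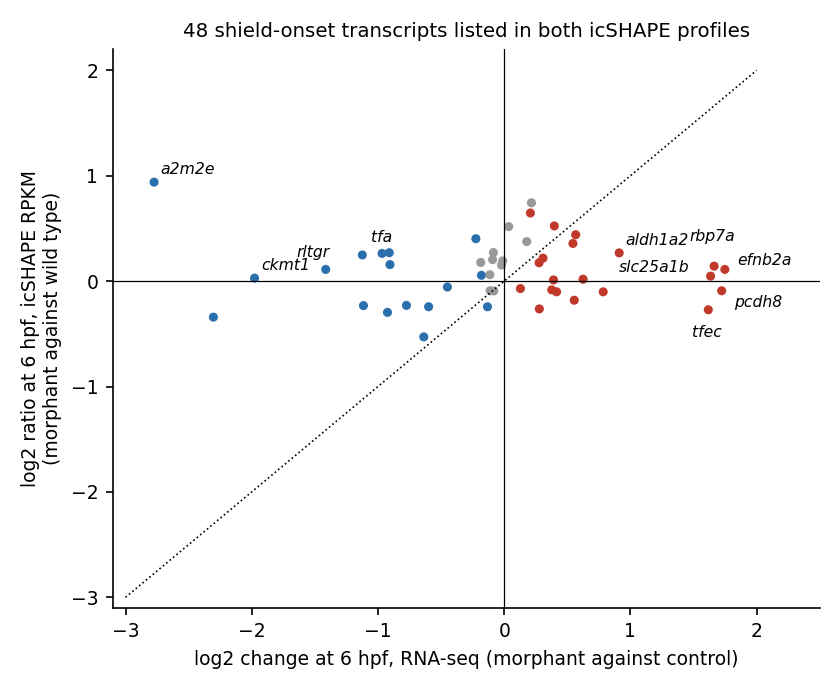
Log2 change at 6 hpf in RNA-seq (x axis, morphant against control, 2 libraries each) and log2 ratio of icSHAPE RPKM (y axis, morphant against wild type, 1 pooled profile each) for the 48 transcripts listed in both profiles, coloured by the RNA-seq call (blue lower, red higher, grey not called). On the dotted line both assays would be equal; the points spread along the x axis from -2.77 to 1.75 and along the y axis from -0.53 to 0.94, with a Pearson r of -0.048.

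Reactivity was compared where over 50% of a transcript's nucleotides carried a value, which held for 58 of the 161 in wild type at 6 hpf. Their mean reactivity was 0.280 (SD 0.026 over transcripts, range 0.220 to 0.321), against 0.289 (SD 0.027) for 4060 other transcripts. Their median icSHAPE RPKM was 29.3 against 49.6 for the others, and 14.9% of their valued nucleotides were at exactly 0 against 10.8%. Among the 3240 others within the same RPKM range the mean was 0.287. With 1 profile per stage no test was possible.

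The lowest mean in wild type was that of hesx1, at 0.220, and the highest that of rbp7a, at 0.321. In morphants 38 of the 161 had enough values, with a mean of 0.248 (SD 0.024), against 0.254 for 3317 others. For the 35 valued in both profiles the mean fell from 0.288 in wild type to 0.248 in morphants, and 34 of the 35 had a lower value; with nucleotides at exactly 0 left out the means were 0.329 and 0.333, 12 of the 35 lower. Nucleotides at 0 made up 12.4% of valued nucleotides in wild type and 25.7% in morphants. The 3292 other transcripts valued in both went from 0.293 to 0.255, with 97.8% lower, a mean difference of -0.039 against -0.041 for the 35. With nucleotides at 0 left out these others had means of 0.325 and 0.324, 1777 of them lower. The exception among the 35 was nid1b, at 0.229 in wild type and 0.262 in morphants, the non-coding record named above. Agr1 had the largest decrease of the 35, from 0.318 to 0.245, and her1 the smallest, from 0.251 to 0.249. Hesx1 was again the lowest in morphants, at 0.151.

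**Figure D5:**
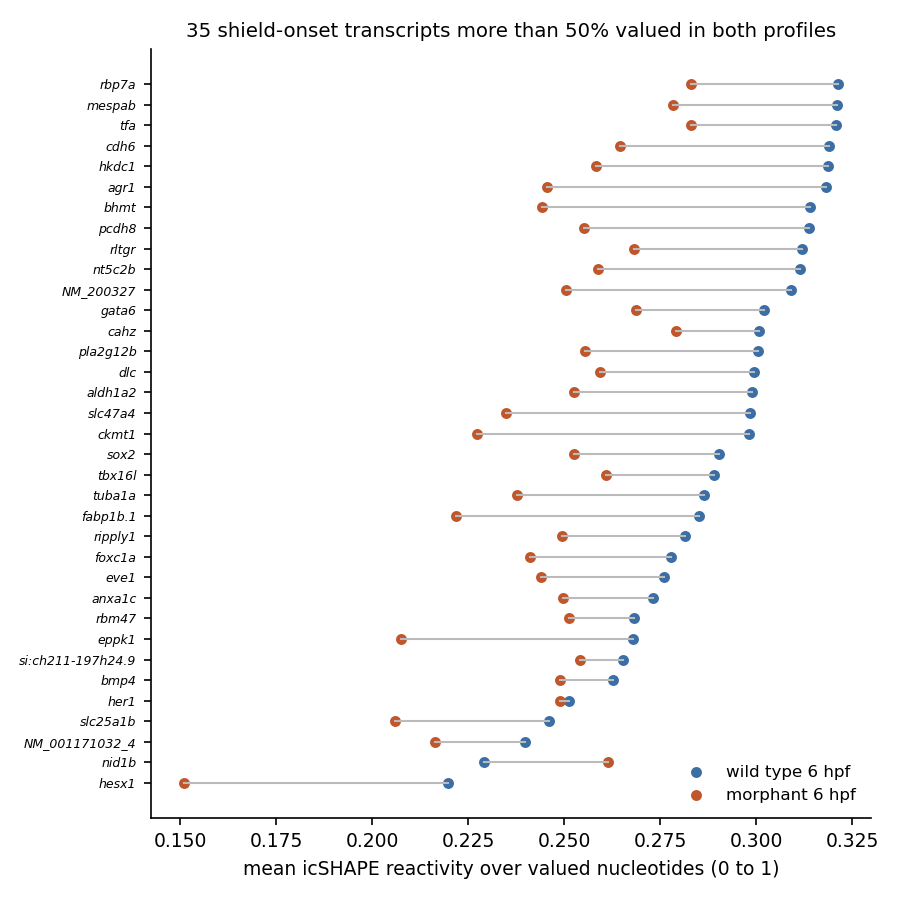
Mean icSHAPE reactivity (x axis, 0 for unreactive to 1 for most reactive; the axis does not start at 0) of the 35 transcripts valued over more than 50% of their length in both 6 hpf profiles, wild type in blue and elavl1a morphant in orange, sorted by wild type. In 34 of 35 the morphant point lies to the left (12 of 35 with nucleotides at 0 left out); nid1b is the exception, and no error bar can be drawn for 1 pooled profile per group.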

How the data were processed

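Per the labels and methods, the authors trimmed reads with cutadapt and Trimmomatic, mapped them with Bowtie2 to RefSeq transcripts of the Z10 assembly, and deposited for each RNA-seq library the unique and multiple read counts and RPKM per transcript, listing values from 0.1 RPKM. The authors deposited icSHAPE reactivity as a fraction per nucleotide and an RPKM per transcript, replicates pooled. From these, unique read counts were fitted over all 10 libraries with edgeR 4.0.16 (quasi-likelihood, library totals, mean over libraries no lower than 1 RPKM, Benjamini-Hochberg adjustment). Alternatives used TMM, DESeq2 1.42.0, limma 3.58.1 on log2(RPKM + 1), no filter, a replicate block and single libraries left out. On simulated data for the 6 hpf comparison 98% to 100% of transcripts changed 1.25-fold to 2-fold were recovered. All simulated transcripts shared the common spread of the fit (coefficient of variation 0.027), and only those at 5 RPKM or more in 6 hpf controls were changed. The recovery therefore does not check the spread of single transcripts or of separate clutches.

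Members, gene lists and tests were chosen with earlier results of these data known. Symbols came from RefSeq annotation by accession and were found for 98.1% of listed transcripts. Named genes were the 12 most abundant at 6 hpf, the 8 lowest and 8 highest changes among called transcripts without overlap, up to 6 from each of 18 gene lists, the transcripts at the threshold and elavl1a; others were named after their values were seen. Correlations of replicate deviations between groups ran from -0.031 to 0.056, so no pairing by replicate number was seen. Between libraries this close, such values cannot exclude a pairing. Crosslink peaks were not analysed here.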

Additional observations from a re-analysis of the deposited data

How the results depend on the processing

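Of 155 recomputed values of the main results, 139 stayed within the range set around the main value. That range limits the size of a shift, so a median that kept its direction, as with TMM or DESeq2, could fall outside it. With 10 RPKM in place of 5 the choice left 95 genes. The median log2 change, -0.33, was -0.40 with TMM, -0.43 with DESeq2, -0.27 with limma, -0.31 with unique and multiple reads together (added after the data were seen) and -0.36 to -0.28 when single libraries were left out; DESeq2 called 22 higher rather than 35. The choice by morphant levels, also added later, is not among the 155. It gave 73 lower and 83 higher calls, 11 and 46 of them by more than 2-fold, and a median of 0.12. Leaving out single libraries gave 75 to 88 lower and 30 to 37 higher calls. Mean reactivity with the median nucleotide was 0.195 over the 58 transcripts valued in wild type and 0.144 over the 38 valued in morphants. Without nucleotides at 0 it was 0.329 and 0.335 over these unlike sets, which puts morphants above wild type. Over the 35 valued in both it was 0.329 and 0.333, and over the 3292 others 0.325 and 0.324. The cause of these shifts was not tested, except that nucleotides at 0 were more frequent in morphants (26.1% against 14.9%). With replicate number as a block 82 were lower and 35 higher, the count at 4 hpf was 72, and the calls of uox and si:dkey-204f11.64 were lost (edgeR adjusted p = 0.0576 and 0.0549). Of 63 genes 14 lost their call and 5 gained one under some alternative, and none changed direction with a call. Counts of crosslink peaks and of TATAAA near the start were not run, since no annotation of that build and no promoter sequences were at hand. Levels under 0.1 RPKM are beyond the depth listed.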
